A study of Homo sapiens with 9 samples.

Results

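The clustered histone genes are the genes that encode the core histones H2A, H2B, H3 and H4 and the linker histone H1 from gene clusters on chromosomes 6, 1 and 12. They were taken as every row of the deposited gene table whose symbol begins with HIST, a cluster number from 1 to 4 and H, leaving out 14 symbols that end in PS and a number, which held 83.8 counts in all. This gave 75 members among 35876 symbols. By histone type there were 6 members of H1, 17 of H2A, 23 of H2B, 14 of H3 and 15 of H4. By cluster, 55 belonged to HIST1 on chromosome 6, 15 to HIST2 and 4 to HIST3 on chromosome 1, and 1 to HIST4 on chromosome 12. GENCODE release 29 lists 69 of them as protein-coding and 6 as pseudogenes.

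Core histones form the protein spool around which DNA is wrapped, and H1 binds the DNA that enters and leaves it. Most clustered histone genes are switched on while DNA is copied, through the coactivator NPAT, so that new histones meet new DNA. Their messenger RNAs usually lack introns and a poly(A) tail. They end in a short stem-loop, which is bound by SLBP and cut with the help of LSM10, LSM11, CPSF3 and other processing factors. Some of the genes can also give polyadenylated RNAs that run past the stem-loop. Histone variants such as H2AFZ and H3F3B lie outside the clusters, are made at other times as well and have ordinary poly(A) tails.

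RNA was sequenced from HEK293, an established human embryonic kidney cell line, in a series about a knockout system that a chemical switches reversibly. The genotype labels gave 3 groups of 3 libraries: CC_Cas9 (called Cas9 here), CC_Cas9_Cre (called Cre) and CC_Cas9_Flpo (called Flpo). All groups thus carried Cas9, an RNA-guided nuclease, and the label CC, whose meaning the labels do not give. The Cre and Flpo groups carried in addition the recombinase of that name. The labels name no promoter, guide, target, clone, dose or time. They do not say whether libraries of a group came from separate cultures, so p-values measure only the spread between these libraries, which may be technical. The protocol names the TruSeq RNA kit and does not say whether poly(A) RNA was selected. Of 29 listed RNAs without a poly(A) tail, 0 had a row in the table. A missing row does not show whether an RNA was sequenced, so this cannot answer whether poly(A) RNA was selected.

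Library totals ran from 213907 estimated counts in Cre library 2 to 8833491 in Flpo library 1, a ratio of 41.3. All 3 Cre totals (213907 to 1701730) and all 3 Cas9 totals (993902 to 3761779) lay below all 3 Flpo totals (4989524 to 8833491). Depth and group thus cannot be told apart in Cre against Flpo or in Flpo against Cas9. Levels are given as CPM, counts scaled to a library total of 1000000. A floor of 3 counts was worth 14.0 CPM in the shallowest library and 0.34 CPM in the deepest. As a check of the cell type, 10 HEK293 markers were listed. Among them VIM was at 206 to 1120 CPM and KRT8 at 151 to 2240 CPM. PAX2 had 1 count in 1 library and 0 elsewhere, NEFM was at 0 to 3.53 CPM and INA at 0 to 4.02. Of 4 blood cell markers, LYZ stood at 23.9 to 322 CPM, while PTPRC, HBB and CD74 were at 0 to 2.74. The hepatocyte markers, listed because the protocol's wording mentions livers, summed to 0.113 to 9.42 CPM, with ALB at 0 in 8 libraries. The 5 fibroblast markers summed to 279 to 1082 CPM in Cas9, 662.9 to 8119 in Cre and 187.6 to 214.1 in Flpo.

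The stem-loop sequences are shown because they set H4 apart from the other types. A stem-loop of 16 bases was found in an annotated transcript of 33 of the 75 members: 0 of H1, 7 of H2A, 14 of H2B, 4 of H3 and 8 of H4. Only 5 sequences occurred among them. They are given 5′ to 3′ as DNA letters, with the loop in capitals and the paired arms in lower case.
17 members of H2A, H2B and H3: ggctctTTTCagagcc
5 members of H2B and H3: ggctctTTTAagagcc
3 members of H2A and H2B: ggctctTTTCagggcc
5 members of H4: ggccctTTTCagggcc
3 members of H4: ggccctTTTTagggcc
Of the 33 members, the 8 H4 genes were the only ones whose first arm reads ggccct. The arms of the first 2 forms were the same, and those forms differ in the loop alone. HIST1H3E, an H3 gene, has the arms of the most frequent form around another loop (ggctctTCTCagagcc) and fell outside the search rule. The other members matched no form in their annotated transcripts, and 32 of the 75 are annotated as coding sequence alone, so the search could not reach their RNA ends.

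Counts came from few of these genes. A total of 14 members had no count in any library, and 14 had counts in all 9. The 14 at 0 included HIST1H1T, HIST1H2AA, HIST1H2BA and HIST3H3, which are known as testis histone genes. Only 16 of the 75 reached 100 counts in some library. Per length, as counts per kilobase of the longest annotated transcript scaled to a library sum of 1000000 and averaged over the 9 libraries, HIST1H4C stood at 5610. The next members on the same scale were the H2A genes HIST2H2AC at 114 and HIST2H2AA4 at 112, then HIST1H1C of H1 at 55.7 and HIST1H2BG of H2B at 51.6.

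HIST1H4C (ENSG00000197061.4, chromosome 6, 26103876 to 26104310, plus strand, GENCODE 29 on GRCh38) thus supplied most histone counts. Its counts were 483, 2528 and 7974 in the Cas9 libraries, 2247, 31 and 205 in Cre, and 16915, 3422 and 12096 in Flpo. It made up between 27.7% (Wilson 95% interval 20.2 to 36.6) of the members' counts in Cre library 2 and 86.5% (85.8 to 87.2) in Cas9 library 3. These intervals cover counting error only. No stem-loop was found in its annotated transcript of 435 bases, and 21 of its last 30 bases are A. Other annotated transcripts end in many A too: the highest count over a member's transcripts was 30 of 30 for HIST1H2BG, and it was 17 for HIST1H3E and HIST2H2AC. HIST2H2AC is annotated as coding sequence alone, so its 17 are not those of an RNA end. The HIST1H4C end is shown because the gene stands so far above the others, with runs of at least 5 A in capitals.
HIST1H4C-201 end: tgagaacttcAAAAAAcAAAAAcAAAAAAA
Whether reads of this gene came from an RNA with a poly(A) tail was not tested.

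Members whose annotated transcripts run past the stem-loop carried many of the remaining counts, before any division by length. Such transcripts went on for over 100 bases in 23 members, of which 22 had counts and 8 had counts in every library. In 10 members the transcript ended within 100 bases of the stem-loop, 8 of them with counts and 1 with counts in every library. For the 23, the summed level was 210.6 to 337.7 CPM of the library total over the 9 libraries, and for the 10 it was 4.527 to 90.86 CPM. The 42 members without an annotated stem-loop, HIST1H4C left out, summed to 32.36 to 152.5 CPM. These are sums over different numbers of genes with transcripts of unlike length. Per length, the median was 4.5 for the 23 and 4.96 for the 10, with highest values of 51.6 and 112. The higher sum of the 23 was thus not seen in the per-length medians. All these values describe the annotation, not the ends of the sequenced RNAs.

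**Figure D1:**
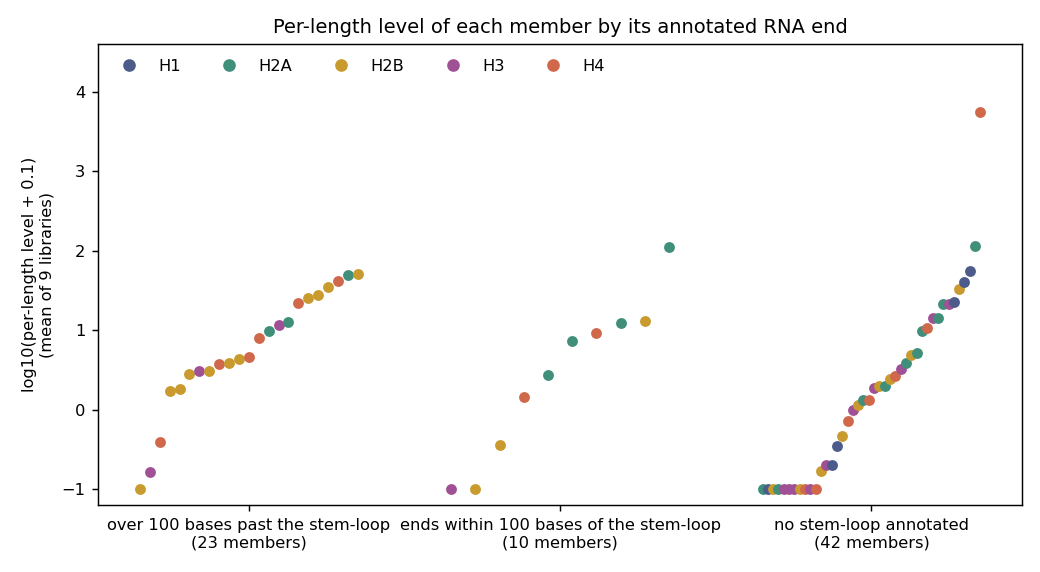
Each point is 1 of the 75 members, placed by the kind of RNA end in its annotated transcripts and coloured by histone type; the vertical axis is log10 of the per-length level plus 0.1, averaged over 9 libraries. HIST1H4C is the single point far above the rest, at a per-length level of 5610, and members with no count lie on the bottom line.

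In all, the 75 members held 0.0524% (Wilson 95% interval 0.0435 to 0.063) of the counts in Cre library 2 and 0.245% (0.24 to 0.25) in Cas9 library 3, the lowest and highest shares. As CPM of the library total, their sum was 823.8, 1850 and 2451 in Cas9, 1751, 521.3 and 703.8 in Cre, and 2362, 991.4 and 1873 in Flpo. The group means were 1708 ± 822.7, 991.9 ± 663.4 and 1742 ± 694.6 (SD, n = 3 each), and the groups overlapped. Without HIST1H4C the sums drew close together, at 311.8 to 337.9 CPM in Cas9, 376.3 to 473.8 in Cre and 305.6 to 447.1 in Flpo, so that every Cre library lay above every Cas9 library. The spread of this total over libraries was therefore mostly that of a single H4 gene. With edgeR's TMM scaling, the sums without HIST1H4C were 277 to 352 in Cas9, 296 to 359 in Cre and 384 to 674 in Flpo. On that scale Flpo lay above both other groups, and Cre and Cas9 overlapped. In bulk RNA, fewer cells that express a gene and less RNA of it per cell cannot be told apart.

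**Figure D2:**
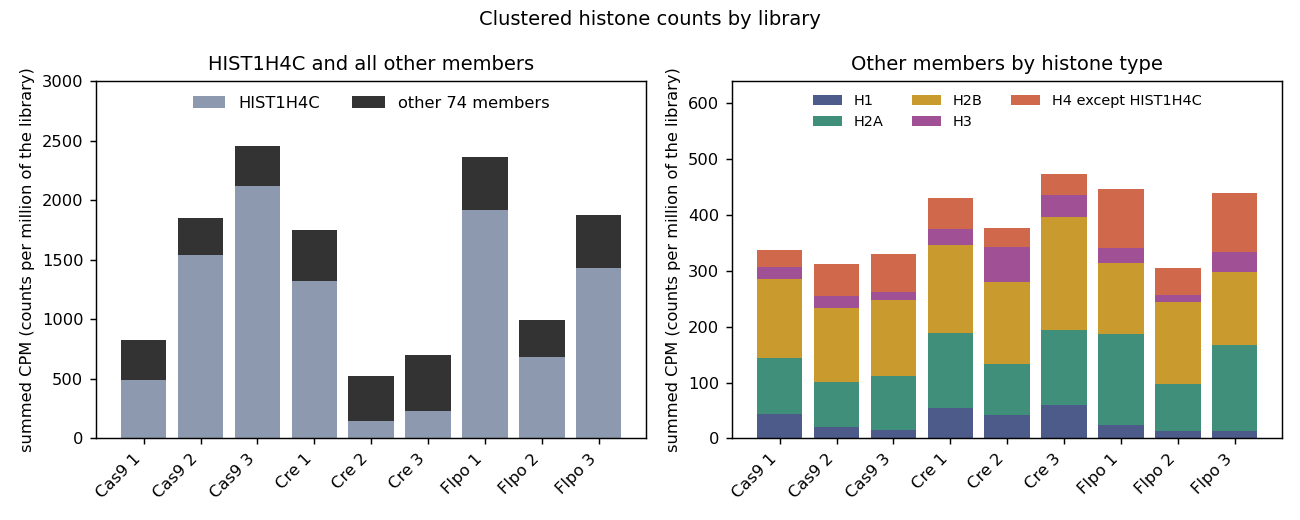
Bars give summed CPM of the library total for each of the 9 libraries; the left panel separates HIST1H4C from the other 74 members, and the right panel divides those 74 by histone type. HIST1H4C sets the height of most bars on the left, whereas the sums on the right stay between 305.6 and 473.8 CPM.

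By type, H1 was the one whose sums on this scale separated Cre from Flpo, at 54.65, 42.07 and 59.45 CPM of the library total in the Cre libraries against 24.45, 12.43 and 13.87 in Flpo, with Cas9 at 44.27, 20.08 and 14.62. The other types overlapped between these 2 groups: H2B lay at 146.7 to 202.5 CPM in Cre and 128.7 to 147.3 in Flpo, and H2A at 91.9 to 135 and 84.15 to 161.7. H3 gave 28.43 to 62.9 and 12.66 to 36.4 CPM, and H4 without HIST1H4C gave 32.72 to 55.35 and 49.03 to 107. The separation depended on the scale: as TMM-scaled CPM, which divides by edgeR's estimate of composition as well as depth, H1 lay at 33.1 to 45.08 in Cre and 15.61 to 36.88 in Flpo and overlapped. On that scale H2B separated Cre from Flpo, at 115.4 to 153.5 in Cre and 171.6 to 194 in Flpo. So did H4 without HIST1H4C, at 25.7 to 45.4 in Cre and 61.6 to 161.3 in Flpo. No test was made of these sums.

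Differences were tested in 1 fit over all 11905 genes that passed edgeR's filter on low counts. Of the 75 members, 20 passed: 3 of H1, 5 of H2A, 6 of H2B, 2 of H3 and 4 of H4. The remaining 55 did not pass the filter. Levels of single members below are CPM with edgeR's TMM scaling (TMM-scaled CPM), and differences are log2 fold changes with their standard errors (SE).

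Between Cre and Cas9, 0 of 20 tested members passed an edgeR adjusted p of 0.05, where 0.0% of all genes did, and 3 of the 20 had an unadjusted p under 0.05, beside 7.38% of all genes. DESeq2 also called 0, beside 0.0336% of all genes. Limma's voom with sample quality weights called 7 of the 20, beside 33.3% of all genes. The smallest edgeR adjusted p among members was 0.619. The median log2 fold change of the 20 was 0.18, beside −0.22 for all genes tested. All 3 H1 estimates were above 0 (median 1.17), and all 4 H4 estimates were below 0 (median −1.47).

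Between Flpo and Cas9, 0 of 20 members were called by edgeR where 0.227% of all genes were. Here 6 of the 20 had an unadjusted p under 0.05, beside 20% of all genes. DESeq2 called 1, beside 8.95% of all genes, and voom called 14, beside 61.0%. The smallest edgeR adjusted p was 0.099, for HIST1H2AC, an H2A gene. Its TMM-scaled CPM were 1.65, 1.70 and 3.96 in Cas9 and 26.3, 6.55 and 30.4 in Flpo, without overlap (log2 fold change 3.01, SE 0.87). The median over the 20 was 0.77, beside 0.05 over all genes. Depth and group cannot be told apart in Flpo against Cas9, as given above. The Cre and Flpo comparisons with Cas9 share the Cas9 libraries.

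Between Cre and Flpo, 4 of the 20 members were called by edgeR, or 20%, where 20.5% of all genes tested were called. Higher calls in Cre numbered 3 against a background of 6.17% of genes, and there was 1 lower call against 14.3%. The members' share of calls was thus at the background. An unadjusted p under 0.05 was reached by 9 of the 20, beside 39.8% of all genes. Groups did not overlap for 5 of the 20 members, or 25.0%, where 43.2% of all genes showed no overlap. The median log2 fold change was −0.79 over the members and −0.34 over all genes with TMM scaling, and 0.01 and 0.44 without it. That change of scale moved the share of all called genes that were higher in Cre from 30.1% to 70.8%.

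**Figure D3:**
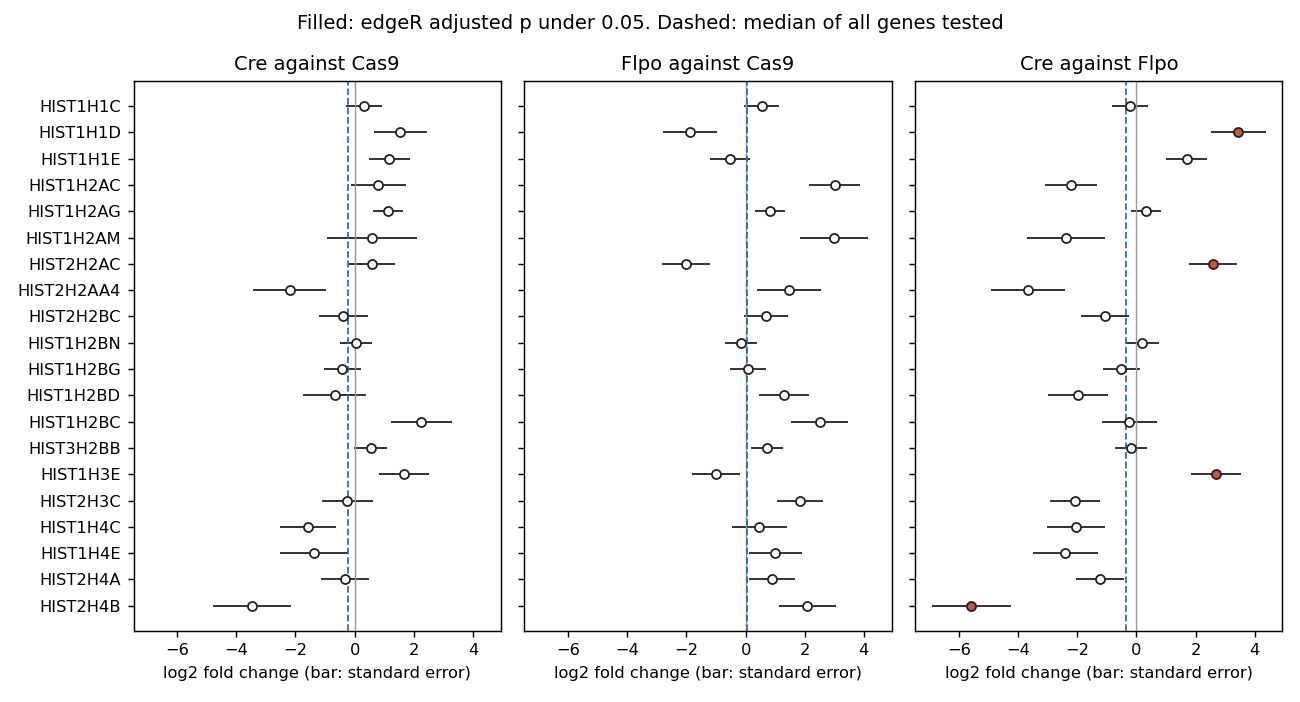
Points are log2 fold changes of the 20 members tested, ordered by histone type, with bars of 1 standard error; filled points passed an edgeR adjusted p of 0.05, and the dashed line is the median of all genes tested. No point is filled in the Cre and Flpo comparisons with Cas9, and 4 are filled in Cre against Flpo.

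HIST1H1D (ENSG00000124575.6, chromosome 6, 26234268 to 26234933, minus strand) encodes a linker histone. Its TMM-scaled CPM were 5.77, 1.70 and 2.54 in Cas9, 7.24, 14.7 and 8.50 in Cre, and 1.37, 1.01 and 0.158 in Flpo. All Cre values lay above all Flpo and Cas9 values, and it was higher in Cre than in Flpo by a log2 fold change of 3.44 (SE 0.93, edgeR adjusted p = 0.0265). The counts behind these levels were 15, 4 and 10 in Cre and 8, 4 and 1 in Flpo. The other H1 genes tested did not pass. HIST1H1E stood at 17.4, 11.0 and 23.0 in Cre and 9.78, 3.02 and 3.47 in Flpo on the same scale (1.70, SE 0.69, edgeR adjusted p = 0.0872). HIST1H1C, the most abundant H1 gene per length, overlapped between all groups, at 7.35 to 20.3 in Cre and 11.1 to 25.6 in Flpo.

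HIST1H3E (ENSG00000274750.2, chromosome 6, 26224199 to 26227473, plus strand) encodes histone H3. Its TMM-scaled CPM were 9.84, 11.5 and 1.02 in Cas9, 10.3, 45.8 and 20.7 in Cre, and 3.45, 3.82 and 3.39 in Flpo. Each Cre library was above each Flpo library (log2 fold change 2.68, SE 0.84, edgeR adjusted p = 0.041). Its estimated counts were of like size in both groups, at 21.388, 12.455 and 24.383 in Cre and 20.217, 15.186 and 21.511 in Flpo. The library totals by which they are scaled differed as given above. HIST2H3C, the second H3 gene tested, had estimates on the other side, at 0 to 5.95 in Cre and 5.04 to 31.5 in Flpo, and did not pass (−2.09, SE 0.85, edgeR adjusted p = 0.0887). Its exon overlaps HIST2H4A on the other strand, and the use of strand in counting is not given in the sources used here.

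HIST2H2AC (ENSG00000184260.5, chromosome 1, 149886975 to 149887364, plus strand) encodes an H2A histone. Its TMM-scaled CPM were 20.4, 19.6 and 12.9 in Cas9, 50.2, 0 and 22.1 in Cre, and 6.22, 3.35 and 3.66 in Flpo. The Cre group held both the highest value and the lowest, so the groups overlapped although the fold change of 2.59 (SE 0.82) passed, with an edgeR adjusted p of 0.0419. The lowest is a 0 in Cre library 2, where 3 counts are worth 14.0 CPM, so it cannot be placed below the Flpo values. The estimated counts of HIST2H2AC were 104.118, 0 and 25.964 in Cre and 36.411, 13.289 and 23.225 in Flpo. Flpo lay below Cas9 in every library (log2 fold change −2.01, SE 0.80), which did not pass in that comparison (edgeR adjusted p = 0.19). Of its 31-base words, 45.8% occur in another member's transcripts, so some of its reads may have been shared. None of the 4 other H2A genes tested passed by edgeR. HIST1H2AG was at 31.6 to 70.0 in Cre and 41.7 to 43.0 in Flpo, with an estimate of 0.31 (SE 0.51). The estimates of HIST1H2AC, HIST1H2AM and HIST2H2AA4 were −2.21, −2.39 and −3.66.

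HIST2H4B (ENSG00000270276.2, chromosome 1, 149854045 to 149861210, minus strand) encodes histone H4 and was the 1 member called lower in Cre. Its TMM-scaled CPM were 0, 17.0 and 17.5 in Cas9, 1.86, 0 and 0 in Cre, and 21.0, 33.8 and 97.2 in Flpo. The Cre level rests on 3.849 estimated counts in 1 library. Every Flpo value was above every Cre and Cas9 value (Cre against Flpo −5.58, SE 1.33, edgeR adjusted p = 0.0197). The 3 other H4 genes tested also had estimates below 0 and did not pass. For HIST1H4C, TMM-scaled CPM were 398, 1440 and 2250 in Cas9, 1080, 114 and 174 in Cre, and 2890, 862 and 1910 in Flpo. Its Cre library 1 lay above Flpo library 2, so the groups overlapped (−2.04, SE 0.97, edgeR adjusted p = 0.133).

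**Figure D4:**
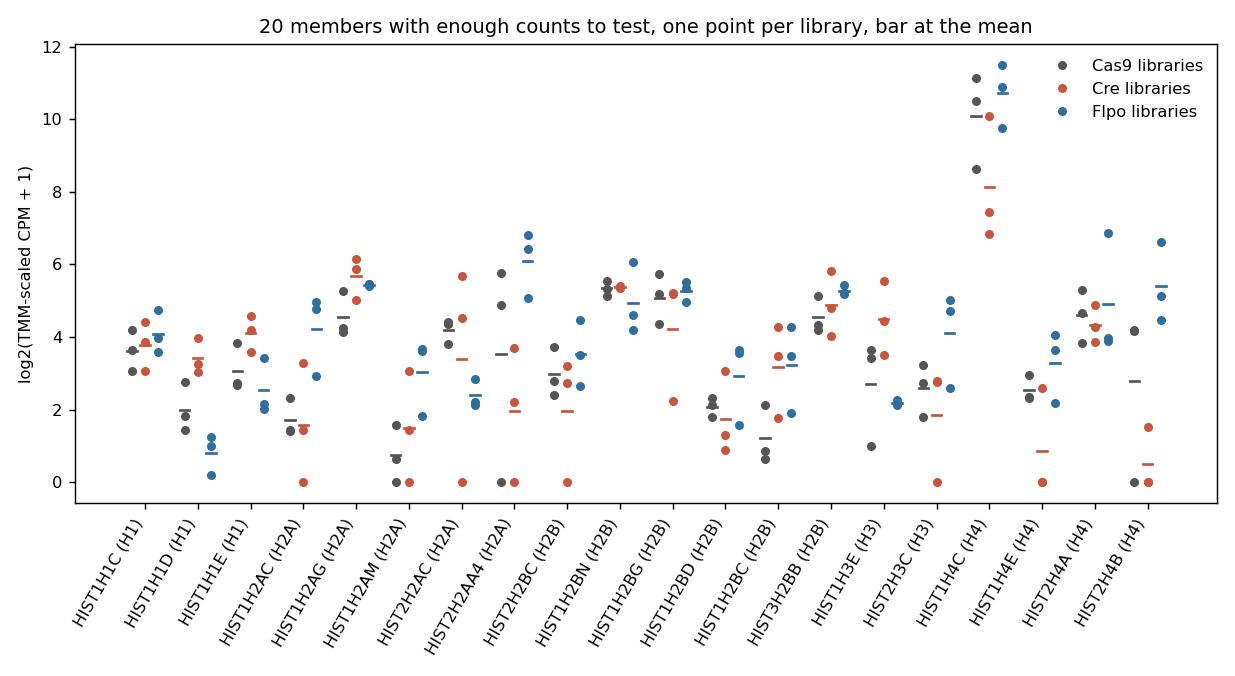
Each point is 1 library, coloured by group, with the group mean as a short bar; the vertical axis is log2 of TMM-scaled CPM plus 1 for the 20 members tested, ordered by histone type. HIST1H1D and HIST1H3E have all Cre points above all Flpo points, HIST2H2AC has a Cre point at 0, and HIST2H4B has its Flpo points above all others.

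HIST2H4B is a near-identical copy of HIST2H4A, and its counts cannot be trusted alone. Of the 31-base words in HIST2H4B's transcripts, 97.2% also occur in HIST2H4A's, and 98.6% of HIST2H4A's occur in HIST2H4B's. The estimated counts moved between the copies from library to library. In Flpo library 1 HIST2H4A had 671.017 and HIST2H4B 122.982, whereas in Flpo library 3 they had 92.608 and 617.402. Summed over the pair, CPM of the library total were 16.1, 44.4 and 52.9 in Cas9, 37.0, 23.4 and 17.9 in Cre, and 89.9, 37.9 and 84.2 in Flpo. Merged into 1 row, the pair was lower in Cre than in Flpo by a log2 fold change of −2.21 (edgeR adjusted p = 0.0319), although Cre library 1 (37.0) lay just under Flpo library 2 (37.9).

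HIST2H2AA3 and HIST2H2AA4 are a second such pair, of H2A. All 31-base words of HIST2H2AA3 (100%) occur in HIST2H2AA4. Single, HIST2H2AA4 stood at 12.0, 3.68 and 0 TMM-scaled CPM in Cre and 111, 32.6 and 84.5 in Flpo and did not pass (−3.66, SE 1.26, edgeR adjusted p = 0.054). Merged, the pair gave −3.56 with an edgeR adjusted p of 0.0186. The merged fit called 5 of 19 member rows, beside 20.5% of all genes. In all, 13 of the 75 members share over 50% of their words with another member.

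**Figure D5:**
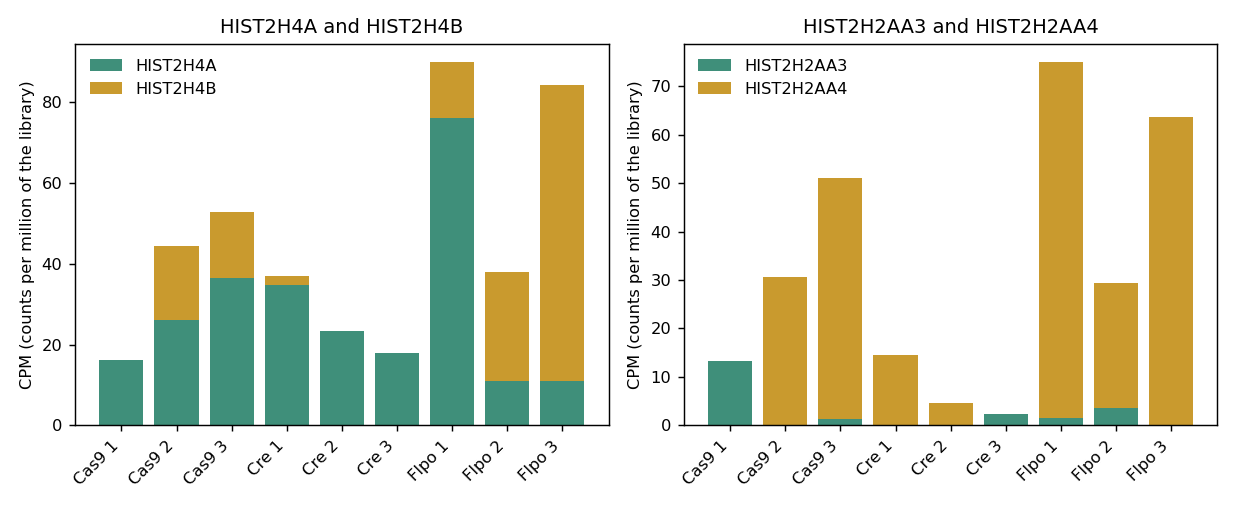
Stacked bars give CPM of the library total for the copies HIST2H4A and HIST2H4B on the left and HIST2H2AA3 and HIST2H2AA4 on the right, for each of the 9 libraries. The division within a bar changes between libraries of 1 group, and for both pairs the 3 Flpo bars are taller than the 3 Cre bars.

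The 6 H2B genes tested gave 0 calls by edgeR in each comparison, with 1 at an unadjusted p under 0.05 in Cre against Cas9, 1 in Flpo against Cas9 and 0 in Cre against Flpo. DESeq2 called 0 in each, and voom called 1, 5 and 2 in that order, beside 33.3%, 61.0% and 67.6% of all genes. HIST1H2BN was at 40.2, 40.5 and 41.5 TMM-scaled CPM in Cre and 23.2, 65.7 and 17.3 in Flpo (log2 fold change 0.20, SE 0.55). HIST1H2BG had 36.4, 3.71 and 35.1 in Cre and 39.8, 44.7 and 30.2 in Flpo, where the low value of Cre library 2 rests on 1.01 counts. HIST3H2BB, the most abundant HIST3 member, had 27.0, 15.2 and 56.0 in Cre and 36.3, 42.4 and 35.4 in Flpo. HIST1H2BN overlaps 2 H2A genes, HIST1H2AK and HIST1H2AL, in its exons. HIST4H4, the single HIST4 member, was not tested and lay at 0.7999 to 4.688 CPM of the library total.

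The 4 calls were lost in several other fits. Without Cre library 2, Cre library 3 or Flpo library 1, 0 members were called, and so were 0 of all genes. Without Flpo library 3, 0 members and 3.28% of all genes were called. In those 4 fits, 11 of 28, 10 of 29, 6 of 22 and 5 of 22 members tested had an unadjusted p under 0.05, beside 34.5%, 24.3%, 26.0% and 26.6% of all genes. Leaving out a library also changed how many members could be tested. Calls numbered 11 of 24 without Flpo library 2, beside 44.1% of all genes. They numbered 8 of 29 without Cas9 library 1 (24.5% of all genes), and 6 of 23 without Cas9 library 3 (19.5%). Without Cre library 1 they numbered 7 of 29 (22.7%), and HIST2H2AC was no longer called (1.61, edgeR adjusted p = 0.156). Without Cas9 library 2, 3 of 29 were called (10%), among them HIST1H1D and HIST2H4B but not HIST1H3E or HIST2H2AC. With log2 library total as a covariate, 0 members and 0 genes passed. The estimates in that fit were 2.14 for HIST1H1D, −0.33 for HIST1H3E, 4.52 for HIST2H2AC and −2.22 for HIST2H4B. After thinning all libraries to the smallest total, 5 members could be tested, none of the 4 among them, and 0 passed. The covariate fit and the thinned fit each left 1 member with an unadjusted p under 0.05, beside 6.15% and 42.1% of all genes. The fibroblast markers moved with the groups too: COL1A1, COL1A2 and COL3A1, 3 of 4 tested, were higher in Cre than in Flpo by 3.19, 3.47 and 3.04 (edgeR adjusted p = 0.0243, 0.0287 and 0.021), with DCN at 1.84 and not passing. The estimated counts of COL1A1 were 310.35, 436.68 and 401.91 in Cre and 500.82, 286.57 and 451.23 in Flpo, so they too were of like size in both groups. LUM was not tested. The part of these markers and of depth in the histone values was not tested.

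Promoters were read to see what members share upstream. RefSeq (GRCh38.p14) held 1 promoter for 56 of the 75 members, and the 250 bases before the start were searched on both strands for 3 motifs. TATAAA, the letters of a TATA box, occurred in 36 of the 56 (64.3%), beside 10.7% of 35116 promoters of all genes. Matches at any distance were counted. The only match of HIST1H2BE lay 189 bases before the start, and that of HIST4H4 250 bases before it. HIST1H2AE, HIST1H2BC, HIST1H2BM and HIST1H2BO matched on the other strand alone, 206 to 220 bases before the start. CCAAT, bound by NF-Y, occurred in 46 (82.1%), beside 32.0%. ATTTGCAT, the octamer bound by POU2F1, occurred in 24 (42.9%), beside 1.63%. TATAAA was found in every type, in 3 of 6 promoters of H1, 10 of 14 of H2A, 10 of 16 of H2B, 6 of 7 of H3 and 7 of 13 of H4. The octamer was found in 11 of 14 H2A and 13 of 16 H2B promoters and in none of H1, H3 or H4. Windows of neighbouring H2A and H2B genes on opposite strands can overlap, so 1 site can be counted for both genes in these shares. CCAAT was found in every H1, H2A, H2B and H3 promoter read and in 3 of 13 of H4.

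The upstream 250 bases of 3 genes with calls show these differences, each given 5′ to 3′ on the gene's own strand with the motifs in capitals on either strand. On the other strand TATAAA reads TTTATA. The CCAAT box reads ATTGG there. The octamer reads ATGCAAAT there. TATAAA can overlap its own other-strand form. HIST2H2AC is at chr1:149886668-149886917 (plus strand), HIST1H1D at chr6:26234988-26235237 (minus strand) and HIST2H4B at chr1:149861160-149861409 (minus strand).
HIST2H2AC: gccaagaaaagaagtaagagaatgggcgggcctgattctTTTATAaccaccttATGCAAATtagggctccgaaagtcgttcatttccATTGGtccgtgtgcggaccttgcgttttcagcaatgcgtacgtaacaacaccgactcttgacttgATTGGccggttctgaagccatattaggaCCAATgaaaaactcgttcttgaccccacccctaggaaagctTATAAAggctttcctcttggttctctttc
HIST1H1D: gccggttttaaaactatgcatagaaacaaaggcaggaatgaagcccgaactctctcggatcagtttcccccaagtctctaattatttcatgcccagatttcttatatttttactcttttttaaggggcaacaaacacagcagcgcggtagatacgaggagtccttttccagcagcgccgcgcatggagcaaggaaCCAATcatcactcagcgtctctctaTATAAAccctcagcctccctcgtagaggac
HIST2H4B: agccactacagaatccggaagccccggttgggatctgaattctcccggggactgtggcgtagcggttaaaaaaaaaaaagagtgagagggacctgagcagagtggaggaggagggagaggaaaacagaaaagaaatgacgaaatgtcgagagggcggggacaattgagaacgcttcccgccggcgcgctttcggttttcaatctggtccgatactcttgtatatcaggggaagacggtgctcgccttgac
The H2A promoter held all 3 motifs, with TATAAA starting 29 bases before the start and the octamer 197 bases before it. Its window overlaps that of HIST2H2BE, an H2B gene on the other strand. There the same octamer lies 46 bases before the HIST2H2BE start, and the TTTATA above is the TATAAA 30 bases before that start. The H1 promoter held CCAAT at 55 and TATAAA at 30 bases before the start. None of the 3 motifs is in the H4 window. A match describes the letters only.

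Many of these promoters are shared. GENCODE places 14 pairs of members head to head with starts within 1000 bases, 13 of them an H2A with an H2B gene. The levels of partners ranged from alike to far apart. Both HIST1H2AA and HIST1H2BA were at 0. HIST1H2BC and HIST1H2AC stood at 28.1 and 9.84 per length over the 9 libraries, but at 7.468 and 7.323 in mean CPM of the library total. The 3 pairs that follow were chosen, after their values were seen, because their levels are unequal. Per length HIST2H2AC was at 114 and its partner HIST2H2BE, 323 bases away, at 4.30. HIST1H2BG was at 51.6 and HIST1H2AE, 283 bases away, at 7.25. HIST3H2BB was at 35.4 and HIST3H2A, 234 bases away, at 12.5. These levels depend on the annotated transcript lengths, 390 bases of coding sequence alone for HIST2H2AC and 2194 bases for HIST2H2BE. In mean CPM of the library total these 2 stood at 17.55 and 4.303. In the Flpo libraries alone the order turned, with means of 3.179 CPM for HIST2H2AC and 4.065 for HIST2H2BE. The other pairs stood at 32.29 (HIST1H2BG) and 1.534 (HIST1H2AE), and at 32.07 (HIST3H2BB) and 5.138 (HIST3H2A).

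Genes that make, process or carry histones were read from the same fit, where 20.5% of all genes were called between Cre and Flpo. SLBP, the stem-loop binding protein, was at 11.5, 13.1 and 16.1 TMM-scaled CPM in Cas9, 1.93, 3.68 and 0.85 in Cre, and 89.5, 23.4 and 118 in Flpo. It was lower in Cre than in Flpo by a log2 fold change of −5.43 (SE 0.82, edgeR adjusted p = 0.0167), with all Cre values lowest and all Flpo values highest. NPAT, the coactivator, overlapped between groups, at 32.6 to 42.7 in Cre and 17.1 to 36.4 in Flpo (0.57, SE 0.49, edgeR adjusted p = 0.397). Of 21 tested genes of histone mRNA transcription and 3′ end processing, 2 rose and 4 fell in Cre against Flpo with TMM scaling, with a median of −0.92. The counts of this list without TMM scaling are not given here. Over all called genes that change of scale moved the share higher in Cre from 30.1% to 70.8%. CSTF2T, a cleavage factor, was among those that fell (−4.49, SE 1.08, edgeR adjusted p = 0.0201). Its Cre level rests on 3, 0 and 0 counts, and that of SLBP on 4, 1 and 1.

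Of 10 tested histone genes outside the clusters, 4 fell in Cre against Flpo and 0 rose, with a median of −2.07. H2AFZ, which encodes the variant H2A.Z, was at 46.3, 103 and 19.6 TMM-scaled CPM in Cre and 1270, 263 and 1060 in Flpo (−4.0, SE 0.92, edgeR adjusted p = 0.0188). H3F3B, which encodes H3.3, was at 103, 121 and 43.4 in Cre and 1290, 244 and 1550 in Flpo (−3.54, SE 0.83, edgeR adjusted p = 0.0194). H2AFV also fell (−2.21, SE 0.58, edgeR adjusted p = 0.0244). H3F3A, which encodes the same protein as H3F3B, did not pass (−2.20, SE 0.80, edgeR adjusted p = 0.0653). Without TMM scaling 2 of the 10 fell and 0 rose, where 24.2% of all genes were called and 70.8% of those calls were higher in Cre.

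S phase and replication genes, whose products are made when clustered histones are, gave 14 of 23 lower and 0 higher in Cre against Flpo, with a median of −2.79. Their largest falls were those of TYMS, which makes thymidylate (−4.62, SE 0.89, edgeR adjusted p = 0.0167), and CDC45, a helicase factor (−4.62, SE 1.21, edgeR adjusted p = 0.0243). The Cre levels rest on 4.96, 2 and 9 estimated counts for TYMS and 7, 0 and 1 for CDC45. Without TMM scaling 9 of the 23 were lower and 1 higher, where 24.2% of all genes were called and 70.8% of those calls were higher. Of 23 tested histone chaperones and importers, 3 fell and 0 rose, with a median of −0.40. Without TMM scaling 1 of them fell and 3 rose, beside the same 24.2% of all genes. ASF1B (−3.35, SE 0.81, edgeR adjusted p = 0.0204) and IPO4 (−2.68, SE 0.71, edgeR adjusted p = 0.0254) fell with TMM scaling. Their Cre levels rest on 17, 3 and 2 counts for ASF1B and 16, 2 and 2 for IPO4. In these 4 lists edgeR called 0 genes in either comparison with Cas9, where 3, 2, 2 and 3 genes had an unadjusted p under 0.05 for Cre and 5, 4, 3 and 9 for Flpo, in the order variants, processing, chaperones and S phase. In that order DESeq2 called 0, 0, 0 and 0 for Cre and 2, 2, 1 and 5 for Flpo, and voom called 7, 7, 8 and 12 for Cre and 8, 12, 12 and 18 for Flpo. The lists hold 10, 21, 23 and 23 tested genes, and the shares of all genes were those given above for the members. With log2 library total as a covariate 0 genes of the 4 lists passed in Cre against Flpo, and the medians were 0.05, 0.50, 0.33 and 0.20 in that order.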

How the data were processed

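RNA-seq libraries of 9 HEK293 samples were used. The authors deposited 1 table of estimated counts per gene symbol, not normalized; per the submitters' processing notes Salmon 0.14.1 and hg38 were named, with roles not given. Filters and the use of strand are not given in the sources used here. The columns were matched to samples by their titles, and 0 columns belonged to other samples. The estimated counts were rounded, and edgeR 4.0.16 (R 4.3.3) was run by its quasi-likelihood test with TMM scaling and its default filter on all 9 libraries, without covariates. Standard errors were taken from the fold change and the F statistic. Adjusted p-values are Benjamini-Hochberg values over 11905 genes, with a threshold of 0.05. Called means past that threshold. The code was tested on simulated data. Floors of 3 counts and intervals cover counting error only, since reads carry no molecular identifiers.

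Members, lists and tests were chosen with earlier results of these data known, and the Cre and Flpo comparisons with Cas9 share control libraries. The genes named are members past the threshold, the 2 most abundant of each type and the most abundant of each cluster. Lists name up to 2 called genes with the largest change, the 4 most abundant variants, SLBP and NPAT. HIST1H2AC, HIST1H2AM, HIST1H2BC, HIST2H2BE, HIST1H2AE, HIST3H2A and the members at 0 were named after their values were seen. Coordinates and transcripts are from GENCODE release 29, which held all 75 members. Alternatives were DESeq2 1.42.0, voom in limma 3.58.1, no TMM, other filters, only the groups compared, library total as a covariate, thinning, the replicate number as a block, merged copies and leaving out each library. HIST2H3A was not analysed here, so 2 pairs were merged.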

Additional observations from a re-analysis of the deposited data

Results flagged for a closer look

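For 4 of the 20 members tested, levels differed between the Cre and Flpo groups by the edgeR test of Cre against Flpo, as described above. That is 20%, beside 20.5% of all genes, and depth and group cannot be told apart in this comparison. The log2 difference was 3.44 for HIST1H1D, 2.68 for HIST1H3E, 2.59 for HIST2H2AC and −5.58 for HIST2H4B, at edgeR adjusted p-values of 0.0265, 0.041, 0.0419 and 0.0197. With near-identical copies merged the last of these, then the sum of HIST2H4A and HIST2H4B, was −2.21.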

How the results depend on the processing

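Depth limits these results: 55 of 75 members did not pass edgeR's filter on low counts, and in Cre library 2 the 75 members held 112 counts in all, of which 31 were from HIST1H4C. Of the values recomputed for single named members, 640 kept direction and side of the threshold, 33 newly passed, 25 no longer passed and 58 changed sign; the cause was not tested in any case.

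Members called in Cre against Flpo numbered 4 of 20 as reported, 8 of 20 by DESeq2 (33.4% of all genes), 9 of 61 with no filter on low counts (14.2%), 2 of 13 with the stricter filter (21.8%), 7 of 27 with only the 2 groups compared (16.9%) and 14 of 20 by voom with sample quality weights (67.6%). They numbered 5 of 20 without TMM scaling (24.2%), 0 of 20 with log2 library total as a covariate (0.0%) and 0 of 5 after thinning (23.3%). With each library left out in turn they ranged from 0 to 11. In Flpo against Cas9, where 0 were called, DESeq2 gave 1 (8.95% of all genes), no filter gave 2 of 61 (4.6%), voom gave 14 (61.0%), and leaving out libraries gave 0 to 6, the 6 (of 24) without Flpo library 2, beside 21.3% of all genes. In Cre against Cas9 voom gave 7 (33.3%), and every other alternative that was run gave 0. The mean summed CPM without HIST1H4C was 327 in Cas9, 427 in Cre and 397 in Flpo. Leaving out libraries, that over all 75 members ranged from 1337 to 2150 in Cas9, 613 to 1227 in Cre and 1432 to 2117 in Flpo.

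Libraries share replicate numbers across groups, but same-numbered libraries did not deviate together in every pair of any comparison (correlations of −0.549 to 0.527), and 2 of 9 libraries correlated best with their own number. With the replicate number as a block, 2 members were called between Cre and Flpo, HIST1H1D and HIST2H4B, beside 13.2% of all genes, and 0 in each comparison with Cas9.

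Signs changed as follows in log2 fold change. With log2 library total as a covariate, Cre against Cas9 became −0.23 for HIST1H2BN, 0.34 for HIST1H2BG, 0.87 for HIST2H3C and 0.41 for HIST2H4A. Flpo against Cas9 became 0.93 for HIST1H3E, −0.31 for HIST2H4B, −1.77 for HIST2H2AA4, 0.25 for HIST1H2BN, −1.11 for HIST1H2BG, −0.39 for HIST2H3C, −1.56 for HIST1H4C and −0.23 for HIST2H4A. Cre against Flpo became −0.33 for HIST1H3E, 0.21 for HIST1H1C, −0.79 for HIST1H2AG, 1.07 for HIST2H2AA4, −0.49 for HIST1H2BN, 1.46 for HIST1H2BG, 1.25 for HIST2H3C, 1.24 for HIST1H4C and 0.64 for HIST2H4A. Without TMM, Cre against Cas9 was 0.04 for HIST2H3C, Flpo against Cas9 was −0.08 for HIST1H1C, −0.4 for HIST1H2BG and −0.04 for HIST1H4C, and Cre against Flpo was 0.59 for HIST1H1C, 0.27 for HIST1H2BG and 0.62 for HIST3H2BB. After thinning, HIST1H2BN was −0.13 for Cre and 0.13 for Flpo against Cas9 and −0.26 for Cre against Flpo, and HIST1H2BG was −0.17 in Flpo against Cas9. With no filter HIST1H2BN was −0.03 in Cre against Cas9. By voom, HIST1H1E was 0.42 in Flpo against Cas9 and HIST3H2BB 0.15 in Cre against Flpo.

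Leaving out libraries, values spanned both signs for some members. In Cre against Cas9 the range was −0.09 to 0.67 for HIST1H1C, −0.07 to 0.15 for HIST1H2BN, −0.41 to 1.04 for HIST2H2AC, −0.55 to 0.2 for HIST2H3C, −0.76 to 0.11 for HIST2H4A and −0.11 to 0.9 for HIST3H2BB. In Flpo against Cas9 it was −0.2 to 0.47 for HIST1H2BG, −0.98 to 0.17 for HIST1H2BN, −0.06 to 1.03 for HIST1H4C and −0.96 to 1.34 for HIST2H4A. In Cre against Flpo it was −0.61 to 0.23 for HIST1H1C, −0.01 to 0.59 for HIST1H2AG, −0.15 to 1.01 for HIST1H2BN, −1.67 to 0.6 for HIST2H4A and −0.8 to 0.14 for HIST3H2BB.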
